A study of Mus musculus with 20 samples.

Results

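The 10 genes described here take glucose into the cell and through the first steps of glycolysis. They are the glucose transporters Slc2a1 and Slc2a3, the hexokinases Hk1 and Hk2, the isomerase Gpi1, the phosphofructokinases Pfkl, Pfkm and Pfkp, and the regulatory enzymes Pfkfb3 and Pfkfb4. They were chosen by name, as 10 of the 47729 genes in the count files, and all 10 passed the filter on low counts and were among the 18731 genes tested. In the cultured cells, 9 of the 10 were higher in roxadustat than in control cells at day 7 and 8 at day 21, where 24.1% and 30.0% of all genes tested were higher, with Pfkl, the liver-type phosphofructokinase, 16.9-fold and 12.8-fold higher. Pfkfb4 was lower at both times. Pfkm was called lower at day 21 (log2 -0.20) but higher with scaling by library size alone (log2 0.14), which gave 9 higher genes. In cells straight from the kidney, Pfkl and Gpi1 were higher in roxadustat cells and Hk1, Pfkm and Pfkfb3 lower, but the 3 lower calls were not made when only the day 0 libraries were fitted.

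Glucose enters most cells through facilitative transporters of the SLC2 family, and hexokinase traps it inside as a phosphate ester. Glucose phosphate isomerase rearranges that ester, and phosphofructokinase commits it to glycolysis. The Pfkfb enzymes make and break a fructose bisphosphate that activates phosphofructokinase. Several of these genes are textbook targets of hypoxia-inducible factor (HIF), the transcription factor that roxadustat stabilises by blocking the prolyl hydroxylases that tag it for degradation. In the kidney, proximal tubule cells make and release glucose, while other segments draw more on glycolysis.

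RNA was sequenced from mouse kidney cells sorted with magnetic beads for Sca-1, a surface protein encoded by Ly6a, in 20 libraries of 6 groups. Roxadustat libraries numbered 2 at day 0, 4 at day 7 and 4 at day 21, and control libraries likewise 2, 4 and 4. Day 0 is the freshly isolated cells, of mice given roxadustat (33 mg/kg into the peritoneum for 7 days) or of untreated mice. Day 7 and day 21 are cells kept in a mesenchymal stem cell medium with serum at 20% oxygen, with roxadustat added to the culture or without it, per the series' design text. The labels give no genotype, strain or age. They carry the same injection and culture text for every library, controls included, and do not say whether the cultured cells came from injected mice. All groups share the sort. Whether the libraries of a group stem from different mice or dishes is not stated, so the p-values cover only how far these libraries vary, which may be technical.

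The libraries held 8502011 to 19903160 counts. The biological coefficient of variation within a group lay between 4.07% and 9.11% in 5 groups and was 16.3% in control cells at day 0. HIF targets outside glycolysis, used as a check of the treatment label, were higher in roxadustat cells in 8 of 9 cases at day 0 and in 9 of 9 at day 7 and at day 21. The labels call the cells mesenchymal stem cell-like, and the day 0 libraries also held many transcripts of tubule cells. Summed over 9 proximal tubule markers these came to 22135 to 23251 CPM (counts scaled to a common library total) in roxadustat cells and 21768 to 22385 CPM in control cells at day 0. At day 7 they came to 248 to 257 CPM in roxadustat cells and 83.8 to 90.0 CPM in control cells. The fibroblast markers (10 genes) summed to 1479.7 to 2474 CPM in roxadustat cells and 263 to 446 CPM in control cells at day 0, with 6 called higher. They summed to 6533 to 7590.2 CPM in roxadustat cells and 10468 to 11064 CPM in control cells at day 7, and to 2517 to 3758 CPM in roxadustat cells and 47229 to 50484 CPM in control cells at day 21. Macrophage markers (9 genes) summed to 196 to 234 CPM in roxadustat cells and 101 to 111 CPM in control cells at day 0, with 7 called higher, and all 9 were lower in roxadustat cells in culture. They summed to 16.5 to 18.4 CPM in roxadustat cells and 336 to 341 CPM in control cells at day 7. At day 21 they summed to 16.2 to 18.6 CPM in roxadustat cells and 283 to 332 CPM in control cells. The 9 general epithelial markers were all higher in roxadustat cells in culture, with sums of 517 to 536 CPM against 225 to 236 CPM in control cells at day 7 and of 440.2 to 474 CPM against 16.0 to 21.0 CPM in control cells at day 21. At day 21 the proximal tubule markers came to 296 to 306 CPM in roxadustat cells, with Slc22a6 at 0 counts, and 8.16 to 10.9 CPM in control cells, with Slc22a6 and Hnf4a at 0. Of the 7 markers of the loop, distal tubule and collecting duct, 2 were lower in roxadustat cells at day 0 and none was called in culture. Of the 8 endothelial markers, 7 were lower in roxadustat cells at day 0, 4 were higher and 3 lower at day 7, and 5 were lower at day 21. Beside these marker counts, 2.73% of all genes tested were higher and 4.11% lower at day 0. The shares were 24.1% and 23.6% at day 7, and 30.0% and 32.9% at day 21. Ly6a itself was higher in roxadustat cells at each day, with 667 to 714 CPM against 495 to 549 CPM in control cells at day 0. The part of these shifts in cell type markers in the results below was not tested, and in bulk RNA fewer cells of a type and less RNA per cell cannot be told apart.

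The 300-base windows around the RefSeq transcription starts (GRCm38.p6, 250 bases before to 50 after) are shown for 4 genes, which were picked after their values were seen. The choice was made by the difference between roxadustat and control cells in culture. These are the transporter that rose most, the phosphofructokinase that rose most, the phosphofructokinase that differed least and the gene that was lower at both culture times. Capitals mark the letters ACGTG or GCGTG on either strand (CACGT and CACGC on the printed strand), the core letters that HIF is known to bind. CACGTG holds ACGTG on both strands and was counted at both positions. Each sequence runs in the direction of its gene.
Slc2a1, chr4:119108495-119108794, plus strand: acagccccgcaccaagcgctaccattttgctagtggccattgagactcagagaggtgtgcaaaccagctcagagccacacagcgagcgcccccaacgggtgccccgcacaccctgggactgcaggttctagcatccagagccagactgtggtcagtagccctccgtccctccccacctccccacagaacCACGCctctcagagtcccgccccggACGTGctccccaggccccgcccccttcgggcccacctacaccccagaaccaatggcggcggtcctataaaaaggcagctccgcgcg
Pfkl, chr10:78009758-78010057, minus strand: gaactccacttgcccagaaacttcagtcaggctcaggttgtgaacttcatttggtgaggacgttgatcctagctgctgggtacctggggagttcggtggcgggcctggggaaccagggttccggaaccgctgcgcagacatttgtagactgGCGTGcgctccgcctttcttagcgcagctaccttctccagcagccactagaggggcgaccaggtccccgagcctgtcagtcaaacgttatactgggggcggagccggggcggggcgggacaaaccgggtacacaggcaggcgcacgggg
Pfkm, first of its 4 windows, chr15:98092339-98092638, plus strand: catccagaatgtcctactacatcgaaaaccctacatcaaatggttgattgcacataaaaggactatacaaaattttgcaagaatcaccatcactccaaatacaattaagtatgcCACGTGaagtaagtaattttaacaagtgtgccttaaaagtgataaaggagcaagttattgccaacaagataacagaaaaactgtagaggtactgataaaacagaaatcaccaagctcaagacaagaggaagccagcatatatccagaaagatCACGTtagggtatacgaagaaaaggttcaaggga
Pfkfb4, chr9:108991652-108991951, plus strand: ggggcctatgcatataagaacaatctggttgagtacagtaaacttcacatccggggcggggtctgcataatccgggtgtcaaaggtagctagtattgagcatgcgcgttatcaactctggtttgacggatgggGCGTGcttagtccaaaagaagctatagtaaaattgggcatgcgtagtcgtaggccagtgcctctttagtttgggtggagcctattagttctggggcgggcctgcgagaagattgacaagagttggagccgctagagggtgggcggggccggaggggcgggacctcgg

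A window was on record for 9 of the 10 genes, 14 windows in all, and 11 of these held at least 1 of the motifs. Of all 32851 windows of this length, 43.8% held either motif and 19.6% held ACGTG. In Slc2a1, ACGTG began 36 bases before the start and CACGC 61 bases before it. In Pfkl the single match was GCGTG, 99 bases before the start, and in Pfkfb4 GCGTG, 117 bases before it. In Pfkm, CACGTG lay 136 bases before the start and CACGT began 17 bases after it. The 4 windows of Pfkm held 3, 2, 1 and 0 matches. No match was found in the window of Gpi1, nor in 1 of 2 windows of Hk1 and 1 of 4 of Pfkm. A match is a run of letters in a window and not a measured binding site.

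Slc2a1 encodes GLUT1, the transporter of basal glucose uptake in most tissues (chromosome 4, 119108711 to 119137983, GRCm38). At day 7 it was at 229.7, 229.9, 245 and 233 CPM in roxadustat libraries, against 44.4, 44.7, 48.2 and 45.1 CPM in control libraries. At day 21 it was at 267, 246, 261 and 264 CPM in roxadustat libraries, against 30.3, 29.1, 32.3 and 37.1 CPM in control libraries. The groups lay far apart at both times, with every roxadustat library above every control library. The rise was 5.14-fold at day 7 (log2 2.36 ± 0.06 SE, edgeR adjusted p = 4.13e-22) and 8.06-fold at day 21 (log2 3.01 ± 0.06, edgeR adjusted p = 6.16e-25), n = 4 each. At day 0 it was at 84.3 and 81.1 CPM in roxadustat libraries and at 95.9 and 101 CPM in control libraries. These did not overlap but the difference was not called (log2 -0.25 ± 0.08, edgeR adjusted p = 0.0625, n = 2 each). It was called lower with DESeq2 (adjusted p = 0.0228) and in edgeR without control replicate 1 (adjusted p = 0.0488).

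Slc2a3 encodes GLUT3, a high-affinity glucose transporter best known from neurons. It had few reads, with 14 to 304 raw counts a library. By day 7 GLUT3 transcripts stood at 14.6, 10.4, 12.2 and 11.5 CPM in roxadustat libraries, against 5.30, 3.62, 4.59 and 5.04 CPM in control libraries. By day 21 GLUT3 transcripts stood at 10.9, 12.9, 12.6 and 13.4 CPM in roxadustat libraries, against 3.25, 2.28, 2.39 and 2.46 CPM in control libraries. The roxadustat libraries were all higher at both times, 2.63-fold at day 7 (log2 1.39 ± 0.14, edgeR adjusted p = 3.84e-09) and 4.78-fold at day 21 (log2 2.26 ± 0.16, edgeR adjusted p = 1.04e-12). At day 0 its groups overlapped, with 0.927 and 1.75 CPM in roxadustat libraries and 2.34 and 1.32 CPM in control libraries (edgeR adjusted p = 0.516).

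Per kilobase of exon, Slc2a1 far exceeded Slc2a3 in every group. Of the length-scaled counts of both, Slc2a3 made up 2.45% ± 0.367 in roxadustat cells and 4.70% ± 0.756 in control cells at day 7 (SD, n = 4 each), and 2.28% ± 0.232 in roxadustat cells and 3.79% ± 0.798 in control cells at day 21. The groups did not overlap at either time, which gives the smallest p that 4 against 4 libraries allow (exact permutation test, two-sided, p = 0.0286, 0.0429 adjusted over 18 share tests). Slc2a3 thus rose in roxadustat cells but took a smaller share of the pair. With 9 further SLC2 genes counted in, its share at day 21 was instead higher in roxadustat cells, by 0.634 percentage points. In that wider family, Slc2a1 made up 84.6% ± 0.604 in roxadustat cells and 57.7% ± 0.952 in control cells at day 7, and 85.2% ± 1.03 in roxadustat cells and 34.5% ± 3.03 in control cells at day 21. At day 0 it made up 22.2% ± 1.05 in roxadustat cells and 21.7% ± 1.48 in control cells (n = 2 each). Summed over Slc2a1 and Slc2a3, the level was 0.839 times that of control cells at day 0, 5.03 times at day 7 and 7.92 times at day 21.

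**Figure D1:**
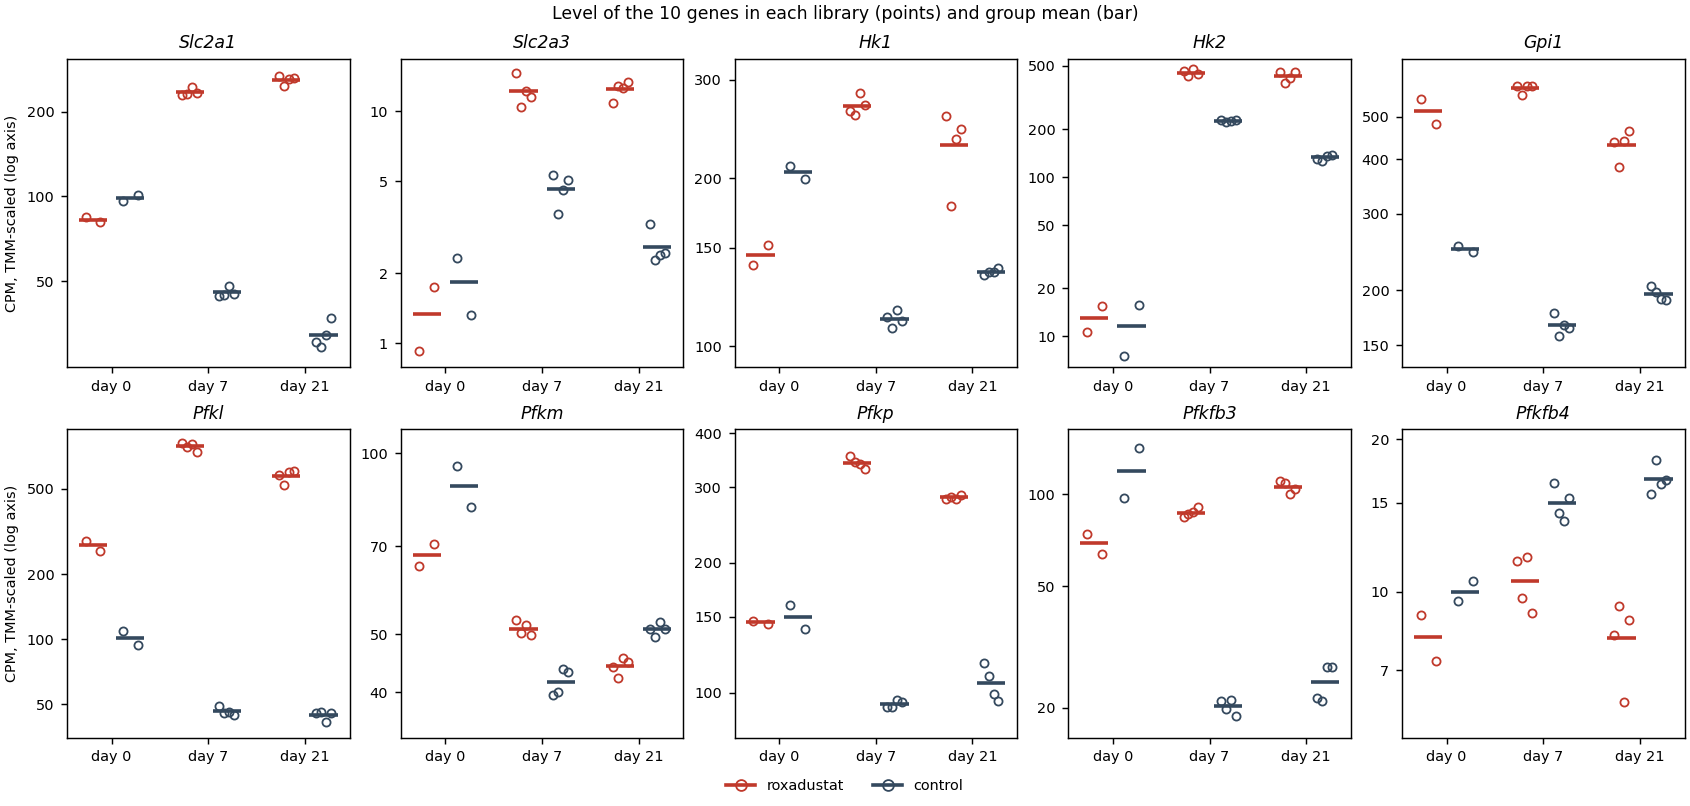
Level of each of the 10 genes in CPM with TMM scaling on a log axis, by day, with roxadustat (red) left of control (blue), 1 point per library and a bar at the group mean. At day 7 and day 21 the roxadustat points lie apart from the control points for every gene. They lie above them except for Pfkfb4 and, at day 21, Pfkm, whose direction there turns round with scaling by library size alone. How many of all genes tested lie apart in this way was not counted. Of all genes, 24.1% were called higher and 23.6% lower at day 7, and 30.0% and 32.9% at day 21.

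Hexokinase 2 is the inducible hexokinase of muscle and proliferating cells, and hexokinase 1 the form found in most tissues. Hk2 changed more with culture than any of the other 9 genes. In fresh cells it was at 10.7 and 15.4 CPM in roxadustat libraries and at 7.52 and 15.7 CPM in control libraries. By day 7 Hk2 was at 464, 433, 480.5 and 443 CPM in roxadustat libraries, against 230.4, 223, 225 and 228 CPM in control libraries. By day 21 Hk2 was at 457, 389.7, 419 and 456 CPM in roxadustat libraries, against 131, 127, 135 and 138 CPM in control libraries. The groups overlapped at day 0 and were apart at day 7 and day 21. The rise with culture was seen in both arms, 35.1-fold at day 7 against day 0 in roxadustat cells (log2 5.13 ± 0.19, edgeR adjusted p = 4.44e-15) and 19.6-fold in control cells (log2 4.29 ± 0.18, edgeR adjusted p = 4.6e-14). Roxadustat cells were 2.01-fold higher than control cells at day 7 (log2 1.01 ± 0.11, edgeR adjusted p = 2.44e-07) and 3.25-fold at day 21 (log2 1.70 ± 0.11, edgeR adjusted p = 7.71e-11). At day 0 the difference was log2 0.16 ± 0.22 (edgeR adjusted p = 0.775). That value rests on single libraries, since it was 0.77 without control replicate 2 (adjusted p = 0.00261) and -0.28 without control replicate 1.

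Hk1 was lower in roxadustat cells at day 0, with 139.7 and 152 CPM in roxadustat libraries against 210.0 and 199 CPM in control libraries (log2 -0.49 ± 0.10, edgeR adjusted p = 0.00331). That call was lost without roxadustat replicate 1 (adjusted p = 0.0628). In culture it was higher. At day 7 it was at 264, 259, 284 and 270.4 CPM in roxadustat libraries, against 113, 108, 116 and 111 CPM in control libraries (log2 1.27 ± 0.07, edgeR adjusted p = 9.6e-14). At day 21 it was at 258, 178, 235 and 245 CPM in roxadustat libraries, against 134, 136, 136 and 138 CPM in control libraries (log2 0.75 ± 0.07, edgeR adjusted p = 1.05e-09). The roxadustat libraries stood above all control libraries at both culture times, and replicate 2 at day 21 lay well below the rest of its group. That library was also the lowest of its group for Slc2a1, Hk2, Gpi1, Pfkl and Pfkm.

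Within the pair of hexokinases, Hk2 made up 11.3% ± 1.94 in roxadustat cells and 7.48% ± 3.69 in control cells at day 0 (SD, n = 2 each). By merged exon length, Hk2 became the larger part in both arms in culture. In control cells at day 21 this rests on the length used. Before length scaling, Hk1 was there at 136 CPM and Hk2 at 133 CPM. The merged exons of Hk1 span 8532 bases, and its longest transcript 4278. At day 7 the share of Hk2 was 70.7% ± 0.602 in roxadustat cells and 74.3% ± 0.567 in control cells, a difference of -3.62 percentage points. At day 21 it was 73.0% ± 1.91 in roxadustat cells and 58.2% ± 0.757 in control cells, a difference of 14.8 points. The groups did not overlap at day 7 or day 21 (exact permutation test, two-sided, p = 0.0286 at each, adjusted p = 0.0429), and the difference changed sign between the times. With the other hexokinases counted in, the difference in the share of Hk2 was -1.01 points at day 7 (exact permutation test, adjusted p = 0.0857) and 12.5 points at day 21 (adjusted p = 0.0514). At day 0 the test of 2 against 2 cannot go below 0.333 (exact permutation p = 0.667). The summed level of Hk1 and Hk2 in CPM per kilobase was 0.743 times that of control cells at day 0, 2.11 times at day 7 and 2.59 times at day 21.

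Gpi1 encodes glucose phosphate isomerase, the single enzyme of the step between hexokinase and phosphofructokinase. It was higher in roxadustat cells at each day. At day 0 it was at 548 and 482 CPM in roxadustat libraries, against 253 and 245 CPM in control libraries (2.07-fold, log2 1.05 ± 0.08, edgeR adjusted p = 1.55e-09). Cultured for 7 days, cells had Gpi1 at 589.5, 562, 589 and 588 CPM in roxadustat libraries, against 178, 157, 167 and 164 CPM in control libraries (3.50-fold, log2 1.81 ± 0.06, edgeR adjusted p = 1.16e-19). Cultured for 21 days, cells had Gpi1 at 437, 384, 439 and 463 CPM in roxadustat libraries, against 205, 198, 191 and 189.8 CPM in control libraries (2.20-fold, log2 1.13 ± 0.06, edgeR adjusted p = 3.9e-16). The groups were apart at each day. The gene Gm26762 shares 11.48% of the exon bases of Gpi1, and without strand their reads cannot be told apart there.

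**Figure D2:**
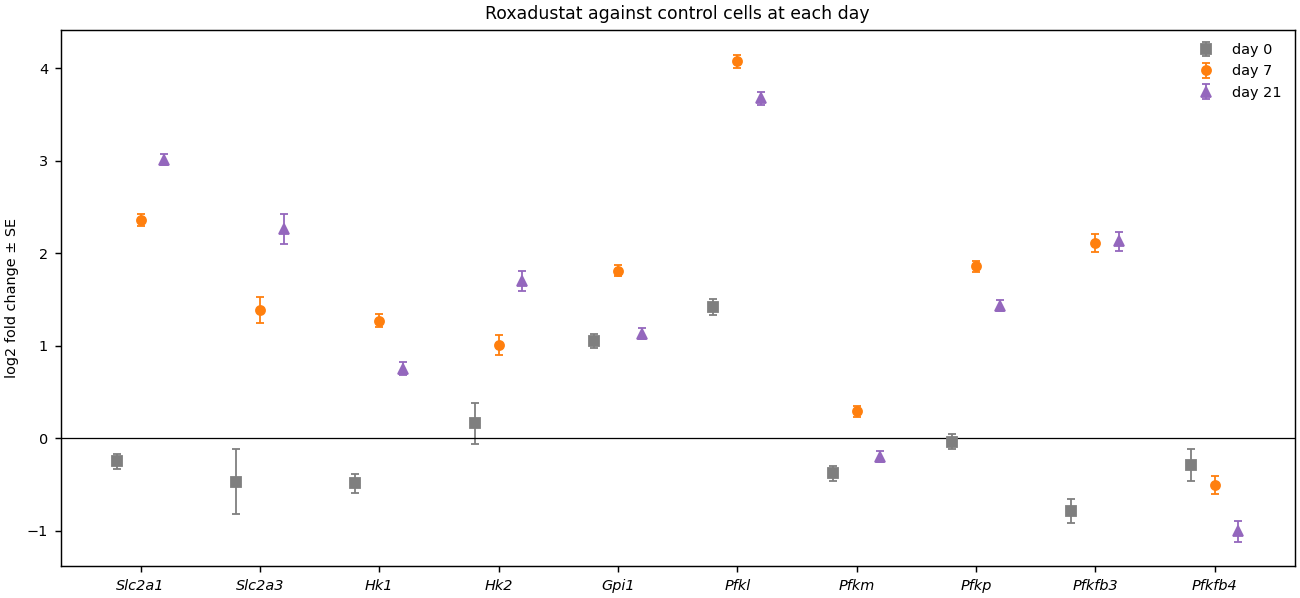
Log2 fold change of roxadustat over control cells from the edgeR fit, with its SE, for each of the 10 genes at day 0 (squares, n = 2 each), day 7 (circles) and day 21 (triangles, n = 4 each). Pfkl stands highest at each day (1.42, 4.08 and 3.68), Pfkfb4 lies below 0 at each, and Pfkm stays nearest to 0 in culture, at 0.29 on day 7 and -0.20 on day 21, where scaling by library size alone turns it to 0.14.

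Phosphofructokinase works as a tetramer of subunits named for liver (Pfkl), muscle (Pfkm) and platelet (Pfkp), and tissues mix them in different ratios. Pfkl was at 287 and 258 CPM in roxadustat libraries at day 0, against 109 and 94.1 CPM in control libraries. By day 7 Pfkl was at 816, 779, 801 and 740.1 CPM in roxadustat libraries, against 49.1, 45.7, 45.9 and 44.6 CPM in control libraries. By day 21 Pfkl was at 575, 517, 597 and 604 CPM in roxadustat libraries, against 45.7, 45.9, 41.3 and 45.8 CPM in control libraries. No library of one group came near those of the other at any day. The rise was 2.68-fold at day 0 (log2 1.42 ± 0.09, edgeR adjusted p = 1.36e-11), 16.9-fold at day 7 (log2 4.08 ± 0.07, edgeR adjusted p = 2.03e-26) and 12.8-fold at day 21 (log2 3.68 ± 0.07, edgeR adjusted p = 3.08e-26). In roxadustat cells Pfkl was 2.88-fold higher at day 7 than at day 0 (edgeR adjusted p = 1.55e-16), whereas in control cells it was 2.19-fold lower (edgeR adjusted p = 5.62e-14).

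Pfkp changed in the same directions in culture but less. At day 0 its groups overlapped, with 147 and 144 CPM in roxadustat libraries and 159.5 and 140.3 CPM in control libraries (edgeR adjusted p = 0.843). Day 7 levels of Pfkp were at 355, 344, 340.1 and 331 CPM in roxadustat libraries, against 92.5, 92.5, 96.3 and 94.9 CPM in control libraries (3.64-fold, log2 1.86 ± 0.06, edgeR adjusted p = 2.14e-20). Day 21 levels of Pfkp were at 282, 284, 281 and 288 CPM in roxadustat libraries, against 117, 109, 99.3 and 95.7 CPM in control libraries (2.70-fold, log2 1.43 ± 0.06, edgeR adjusted p = 8.83e-19). All roxadustat libraries were above all control libraries in culture. Another gene, Pitrm1, shares 5.582% of its exon bases.

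Pfkm, the subunit of skeletal muscle, differed least between roxadustat and control cells in culture. At day 0 it was lower in roxadustat cells, with 65.0 and 70.5 CPM in roxadustat libraries against 95.2 and 81.4 CPM in control libraries (log2 -0.38 ± 0.08, edgeR adjusted p = 0.00231). The call was lost when replicate 1 of either group was left out (adjusted p = 0.0639 without that of roxadustat and 0.0539 without that of control). At day 7 it was at 52.7, 50.3, 51.7 and 49.8 CPM in roxadustat libraries, against 39.6, 40.1, 43.8 and 43.2 CPM in control libraries, a rise of 1.23-fold (log2 0.29 ± 0.06, edgeR adjusted p = 9.31e-05). At day 21 it was at 44.1, 42.2, 45.6 and 45.0 CPM in roxadustat libraries, against 51.1, 49.4, 52.4 and 51.0 CPM in control libraries. The groups were apart at both culture times. The day 21 value was log2 -0.20 ± 0.06 (edgeR adjusted p = 0.00312), but 0.14 (adjusted p = 0.0328) with scaling by library size alone, which shifts the median of all genes by 0.35 in that comparison, and -0.12 (adjusted p = 0.0683) with upper quartile scaling. Relative to the median of all genes, Pfkm was lower in roxadustat cells. A change of scaling moves all genes nearly alike, so that position is nearly the same under each by construction. The sign of the fold change itself depends on the choice. Its exons share 10.75% of their bases with Gm26513 and Senp1.

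The 3 subunits therefore stood in a different ratio in the 2 arms. At day 7, Pfkl made up 74.2% ± 0.379 of their length-scaled counts in roxadustat cells and 26.3% ± 1.45 in control cells. Pfkm made up 9.67% ± 0.161 in roxadustat cells and 47.2% ± 1.45 in control cells, and Pfkp 16.1% ± 0.270 in roxadustat cells and 26.5% ± 0.167 in control cells (SD, n = 4 each). Pfkl was the largest part in every roxadustat library and Pfkm in every control library. At day 21 the order was the same, with Pfkl at 71.3% ± 1.20 in roxadustat cells and 22.5% ± 1.04 in control cells, Pfkm at 11.0% ± 0.255 in roxadustat cells and 51.2% ± 1.97 in control cells, and Pfkp at 17.6% ± 0.973 in roxadustat cells and 26.3% ± 1.76 in control cells. None of these groups overlapped (exact permutation test, two-sided, p = 0.0286 for each, adjusted p = 0.0429). The 3 shares sum to a fixed total, so these tests are not independent of each other. At day 0, Pfkl made up 58.6% and 54.8% in roxadustat libraries and 28.8% in each control library, and Pfkm 26.5% and 29.9% in roxadustat libraries and 50.2% and 49.8% in control libraries. Those groups were apart too, at the smallest p that 2 against 2 libraries allow (exact permutation p = 0.333, adjusted p = 0.375). In control cells, Pfkl made up 28.8% on average at day 0, 26.3% at day 7 and 22.5% at day 21. Pfkm led in control cells only once counts were scaled by exon length. In CPM Pfkp stood highest of the 3 there, at 149.9, 94.0 and 105 at day 0, day 7 and day 21. Pfkm was at 88.3, 41.7 and 51.0 CPM in these groups. The summed level of the 3 subunits was 1.36 times that of control cells at day 0, 5.99 times at day 7 and 4.04 times at day 21.

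**Figure D3:**
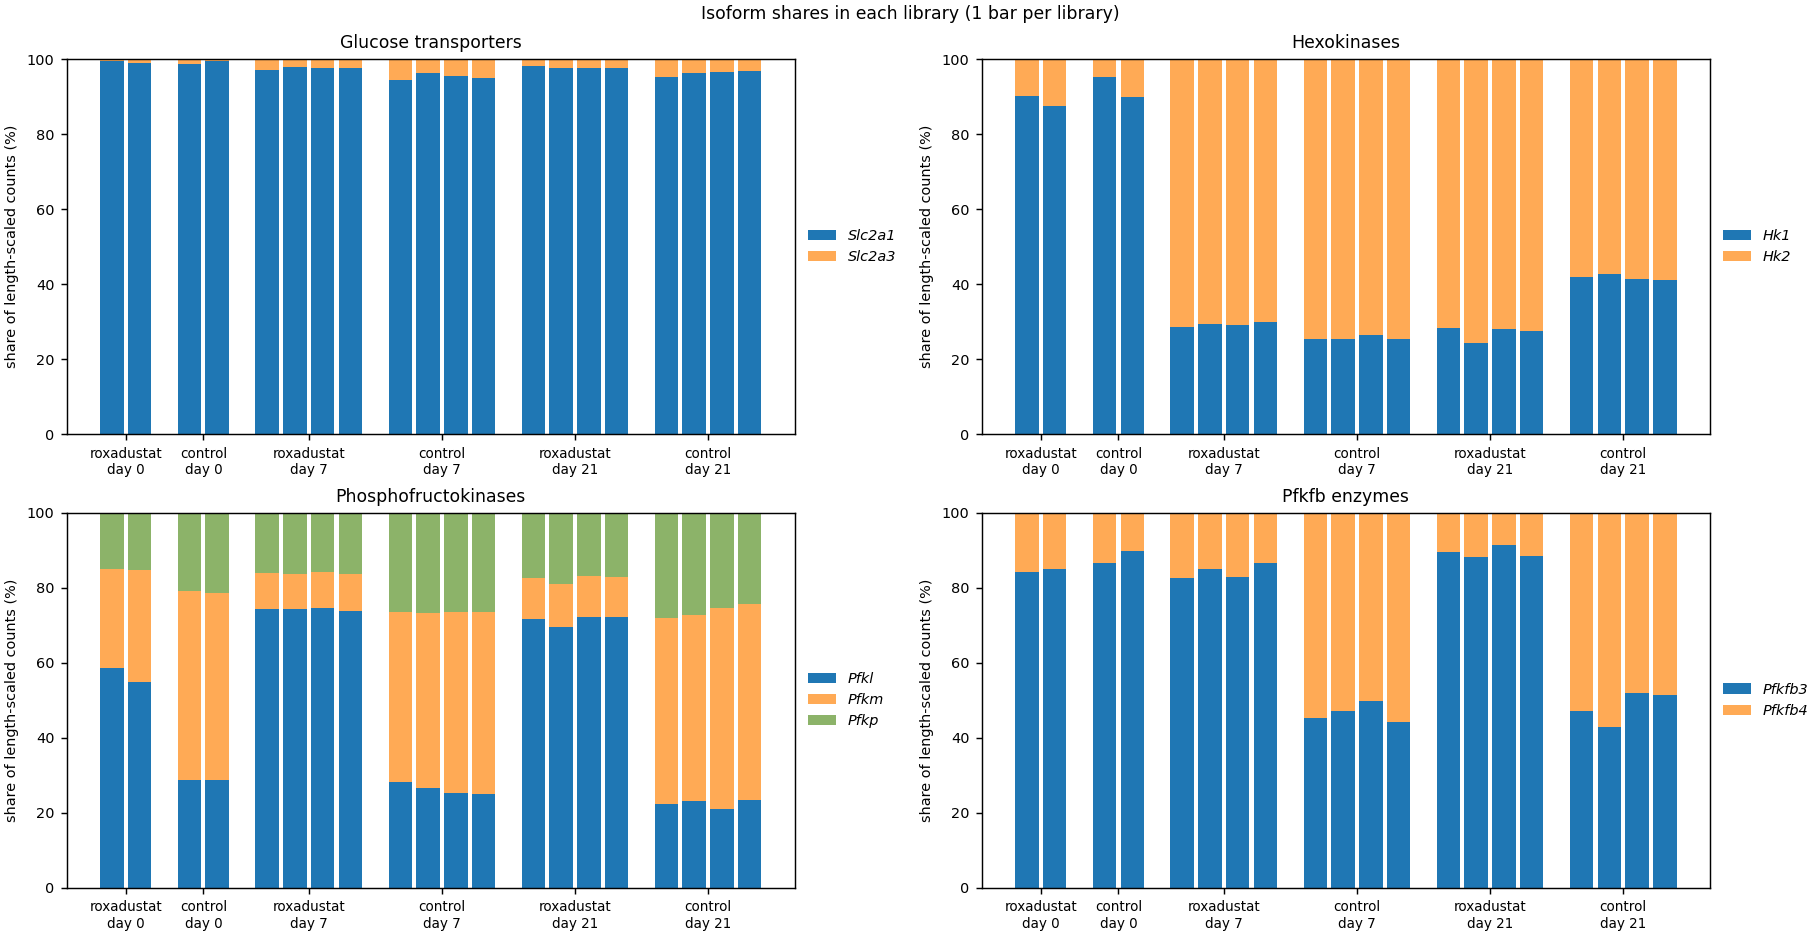
Share of each gene in the length-scaled counts of its family, in percent, with 1 bar per library and each day's roxadustat libraries left of its control libraries. Scaled so, Hk2 passes Hk1 with culture in both arms (11.3% in roxadustat and 7.48% in control cells at day 0, 58.2% to 74.3% later). Pfkl leads the phosphofructokinases in roxadustat libraries and Pfkm in control libraries at each day. In CPM without length scaling, control cells had Pfkp above Pfkm at each day. They had Hk1 at 136 and Hk2 at 133 CPM at day 21.

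Pfkfb3 has high kinase activity and so favours glycolysis, and Pfkfb4 can act in either direction. At day 0, Pfkfb3 was lower in roxadustat cells, with 74.3 and 63.9 CPM in roxadustat libraries against 97.4 and 142 CPM in control libraries (1.73-fold, log2 -0.79 ± 0.13, edgeR adjusted p = 0.000403). The size of that fall rests on the spread of the control pair, since it was log2 -0.50 without control replicate 2 and -1.05 without control replicate 1. By day 7 Pfkfb3 was at 84.1, 86.2, 87.3 and 90.7 CPM in roxadustat libraries, against 21.1, 19.8, 21.2 and 18.8 CPM in control libraries. By day 21 Pfkfb3 was at 110.4, 109, 100.1 and 104 CPM in roxadustat libraries, against 21.5, 21.1, 27.3 and 27.3 CPM in control libraries. The groups were apart in culture, 4.30-fold at day 7 (log2 2.11 ± 0.10, edgeR adjusted p = 4.72e-14) and 4.38-fold at day 21 (log2 2.13 ± 0.10, edgeR adjusted p = 9.3e-15). At day 7 against day 0, Pfkfb3 was 1.26-fold higher in roxadustat cells (edgeR adjusted p = 0.0122) and 5.92-fold lower in control cells (edgeR adjusted p = 1.31e-15), so that the gap opened mostly on the control side.

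Pfkfb4 went the other way. At day 7 it was at 11.5, 9.72, 11.7 and 9.08 CPM in roxadustat libraries, against 16.4, 14.3, 13.8 and 15.3 CPM in control libraries (log2 -0.51 ± 0.10, edgeR adjusted p = 0.00017). At day 21 it was at 8.23, 9.37, 6.06 and 8.79 CPM in roxadustat libraries, against 15.6, 18.2, 16.3 and 16.6 CPM in control libraries (2.01-fold lower, log2 -1.01 ± 0.11, edgeR adjusted p = 6.16e-09). All roxadustat libraries were below all control libraries at both times. At day 0 it was at 9.00 and 7.30 CPM in roxadustat libraries and 9.60 and 10.5 CPM in control libraries, and was not called (log2 -0.29 ± 0.17, edgeR adjusted p = 0.364). It is a gene of few reads here, with 61 to 303 counts a library. Of the length-scaled counts of the pair, Pfkfb4 made up 15.7% ± 1.93 in roxadustat cells and 53.4% ± 2.41 in control cells at day 7, and 10.6% ± 1.47 in roxadustat cells and 51.7% ± 4.31 in control cells at day 21 (exact permutation p = 0.0286 at each, adjusted p = 0.0429). That Pfkfb4 was on average the larger part in cultured control cells rests on the length scaling. Before it, these cells had Pfkfb3 at 20.2 CPM and Pfkfb4 at 15.0 CPM at day 7. At day 21 they had Pfkfb3 at 24.3 CPM and Pfkfb4 at 16.7 CPM. At day 0 Pfkfb4 made up 15.4% ± 0.554 of the length-scaled counts in roxadustat cells and 11.7% ± 2.14 in control cells. The summed level of the pair was 0.604 times that of control cells at day 0, 2.38 times at day 7 and 2.36 times at day 21.

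**Figure D4:**
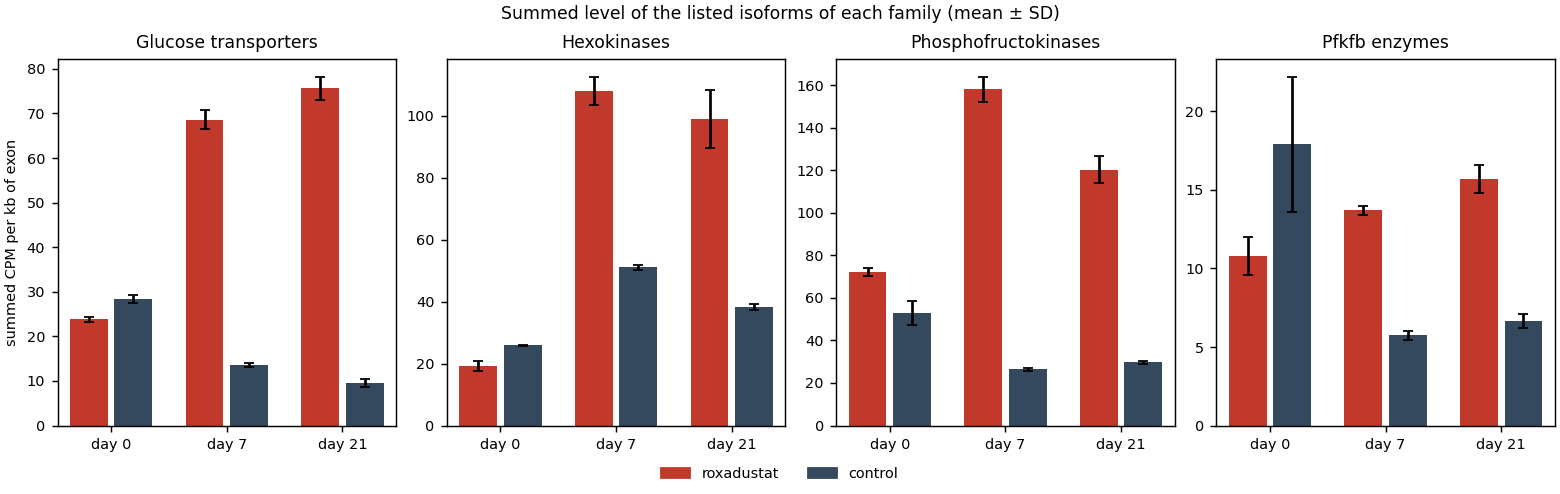
Summed level of the listed genes of each family in CPM per kilobase of exon, as mean with SD (n = 2 at day 0, n = 4 at day 7 and day 21), roxadustat (red) left of control (blue). From day 7 on, roxadustat cells hold 2.11 to 7.92 times the summed level of control cells in all 4 families. At day 0 their mean is lower in all but the phosphofructokinases. The sums were not tested. At day 0 Slc2a1 was not called, and the lower calls of Hk1 and Pfkfb3 were not made when only the day 0 libraries were fitted.

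Counted together, day 0 had 2 of the 10 genes called higher in roxadustat cells and 3 called lower, where 2.73% of all genes tested were called higher and 4.11% lower. At day 7, 9 were higher and 1 lower, where 24.1% of all genes were higher and 23.6% lower. At day 21, 8 were higher and 2 lower, Pfkm with the direction that depends on scaling, where 30.0% were higher and 32.9% lower. The median log2 fold change of the 10 was -0.27, 1.60 and 1.57 at day 0, day 7 and day 21, beside -0.01, 0.03 and 0.00 for all genes. The 3 lower calls at day 0 were not made when only the day 0 libraries were fitted, in which 23 genes were called in place of 1280 and the adjusted p was 0.157 for Hk1, 0.271 for Pfkm and 0.23 for Pfkfb3.

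In roxadustat cells at day 7 against day 0, 9 genes were higher and Pfkm lower, where 37.1% of all genes were higher and 37.6% lower. The higher calls numbered 6 without roxadustat replicate 2 of day 0 and 6 with DESeq2 size factors. In control cells over the same time, Slc2a3, Hk2 and Pfkfb4 were higher and the other 7 lower, where 37.0% were higher and 39.5% lower. Slc2a1 rose 2.84-fold in roxadustat cells (edgeR adjusted p = 1.08e-16) and fell 2.16-fold in control cells (edgeR adjusted p = 2.5e-14). Hk1 likewise rose 1.85-fold in roxadustat cells and fell 1.83-fold in control cells. The interaction, the log2 effect of roxadustat at day 7 minus that at day 0, was called higher for 9 of the 10 genes and lower for none, where 15.5% of all genes had a higher and 13.4% a lower interaction. For Hk1, Pfkm and Pfkfb3 the effect changed sign, with log2 values of 1.27, 0.29 and 2.11 at day 7 and -0.49, -0.38 and -0.79 at day 0. Pfkfb4 was not called (log2 -0.22 ± 0.20, edgeR adjusted p = 0.456).

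In roxadustat cells at day 21 against day 7, Slc2a1 (1.11-fold) and Pfkfb3 (1.22-fold) were higher and Hk1, Gpi1, Pfkl, Pfkm, Pfkp and Pfkfb4 lower, by 1.16-fold to 1.37-fold, where 28.6% of all genes were higher and 32.9% lower. Slc2a3 and Hk2 were not called in these cells. Only 1 of the 2 higher calls was made without replicate 1 or 2 of day 7, or without replicate 1 or 4 of day 21. Upper quartile scaling gave 3 lower calls in place of 6. In control cells, Hk1, Gpi1, Pfkm, Pfkp and Pfkfb3 were higher and Slc2a1, Slc2a3 and Hk2 lower, where 34.5% were higher and 34.3% lower. None of the 5 higher calls was made with scaling by library size alone, which shifts the median of all genes by -0.20 there. Hk2 fell 1.71-fold in control cells (log2 -0.77 ± 0.11, edgeR adjusted p = 4.5e-06). The interaction was higher for Slc2a1, Slc2a3 and Hk2 and lower for Hk1, Gpi1, Pfkl, Pfkm, Pfkp and Pfkfb4, where 20.9% of all genes had a higher and 23.8% a lower one. Among control libraries at day 21, replicates 1 and 2 lay close to each other, as did replicates 3 and 4. For Pfkfb3 that meant 21.5 and 21.1 CPM in replicates 1 and 2, and 27.3 CPM in both of the others.

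The rest of the pathway was read from fixed lists. Of all genes tested, 2.73% were higher and 4.11% lower at day 0. These shares were 24.1% and 23.6% at day 7, and 30.0% and 32.9% at day 21. Of 15 genes of lower glycolysis, day 0 had 6 higher and 2 lower in roxadustat cells, day 7 had 12 higher and 2 lower, and day 21 had 12 higher and 1 lower, with median log2 fold changes of 0.15, 1.65 and 2.58. Ldha, which makes lactate, was at 1818 ± 72.9 CPM in roxadustat cells and 305 ± 9.35 CPM in control cells at day 7 (SD, n = 4 each; edgeR adjusted p = 1.09e-21). Eno2, the neuronal enolase, was the 1 gene lower at day 21 and is named after its value was seen, at 12.7 ± 1.29 CPM in roxadustat cells and 56.2 ± 3.75 CPM in control cells. Many of these genes have near-identical pseudogenes, and how shared reads were counted is not given in the sources used here, so their levels are uncertain. Of 11 other glucose transporters, 0 were higher and 2 lower at day 0 (Slc2a4 and Slc5a2), 3 and 2 at day 7, and 2 and 5 at day 21, with medians of -0.23, 0.09 and -0.96. The day 21 calls include a higher gene at 0.212 CPM in roxadustat cells that had no counts in control cells. They also include a lower gene at 0.0170 CPM in roxadustat cells and 0.234 CPM in control cells. Both calls rest on very few reads. At day 21, Slc2a10 was at 5.98 ± 1.48 CPM in roxadustat cells and 19.5 ± 1.71 CPM in control cells (edgeR adjusted p = 3.67e-12), and so opposite to Slc2a1. Of 10 other enzymes of the hexose phosphate steps, none was called at day 0, 4 were higher and 2 lower at day 7, and 5 and 1 at day 21. Their medians were -0.09, 0.64 and 0.64, leaving out genes without counts and with a gene at 0 in 1 group set at the floor of 3 counts over the group. At day 7, Hk3, a hexokinase found mostly in white blood cells, was at 0.362 ± 0.101 CPM in roxadustat cells and 6.12 ± 0.597 CPM in control cells (16.5-fold lower, edgeR adjusted p = 2.3e-15). At day 21, Hkdc1, which encodes a hexokinase domain protein, was at 22.0 ± 1.98 CPM in roxadustat cells and 0.209 ± 0.115 CPM in control cells (97.7-fold higher, edgeR adjusted p = 1.15e-22). Macrophage markers were lower and epithelial markers higher in the same comparisons, and their part in these values was not tested.

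**Figure D5:**
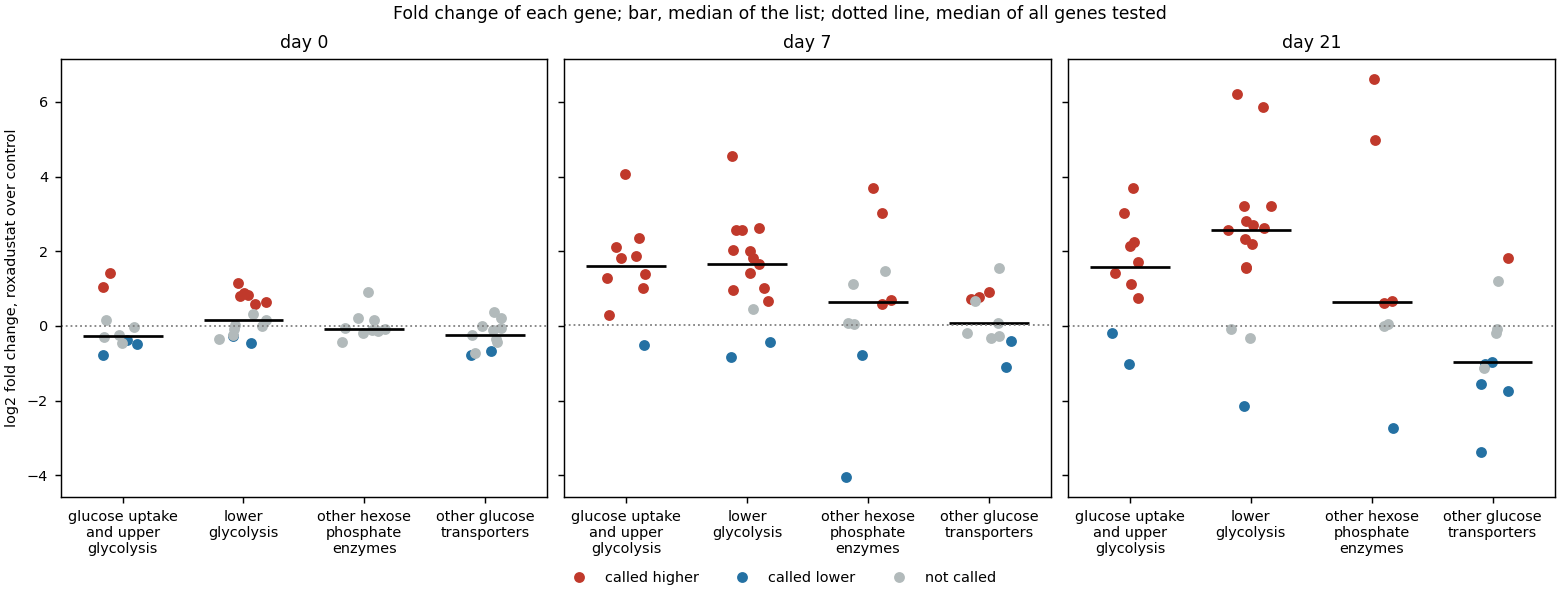
Log2 fold change of roxadustat over control cells for each gene of 4 lists at each day, coloured by its edgeR call, with the median of the list as a bar and that of all genes as a dotted line; genes without counts in a group are not drawn. The medians of upper and lower glycolysis lie at 1.60 and 1.65 at day 7 and at 1.57 and 2.58 at day 21, and that of the other glucose transporters lies at -0.96 at day 21.

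For Slc2a1, Pfkm and Pfkfb4, the tested genes whose level was most like theirs were looked up by Pearson's r of log2 CPM over the 20 libraries, which share the same 6 groups, so r mostly follows the group means and is given as a description. Nearest to Slc2a1 were Atp7b (r = 0.987), Ssh3 (0.985) and Bbx (0.982). Nearest to Pfkm were Dcxr (0.962), Cebpd (0.959) and Ifit1bl1 (0.953), and nearest to Pfkfb4 were Ifi35 (0.946), Apobec1 (0.939) and Itgb1bp1 (0.932). Over the 6 groups, Hk2 spanned the widest range, with its highest group mean 39.3 times its lowest, followed by Pfkl at 17.5 times. Pfkm and Pfkfb4 spanned the narrowest, 2.12 and 2.05 times. The order of the group means also differed. Pfkm was highest in fresh control cells, Pfkfb4 in control cells at day 21, and the other genes but Pfkfb3 in cultured roxadustat cells. Pfkfb3 was highest in fresh control cells, which overlapped with roxadustat cells at day 21.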

How the data were processed

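The mRNA of Trizol extracts was sequenced as non-stranded TruSeq libraries, per the labels' protocols. The authors deposited raw counts of reads per gene for each library, made with bcl2fastq, STAR 2.5.2a and featureCounts 1.5.0-p1 on mm10, per the submitters' processing notes. The annotation release, the strand setting and the treatment of reads that match several genes are not given in the sources used here.

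Of 47729 genes, 47224 had a symbol in the tables used (GENCODE M21 annotation of GRCm38 and its companion name table). In edgeR 4.0.16 (R 4.3.3), genes were filtered with filterByExpr, scaled by TMM and fitted in 1 model of the 6 groups with robust quasi-likelihood tests. The 18731 genes tested were adjusted by Benjamini-Hochberg, with calls at 0.05. SE is the log2 fold change over the square root of F. The interaction tests a difference between 2 days in the roxadustat effect. Levels are CPM on TMM-scaled library sizes. Shares are counts per merged exon length, compared by exact permutation over libraries (scipy 1.17.1). Alternatives used limma 3.58.1 and DESeq2 1.42.0, other scalings, filters and thresholds, single left-out libraries and the replicate number as a block.

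The members and lists were chosen with earlier results of these data known. All 10 members are named in each comparison, and of other lists up to 4 genes of smallest adjusted p could be named. By the same rule the 3 most similar tested genes were looked up for Slc2a1, Hk2, Pfkm and Pfkfb4 (prior count of 2), and those of Hk2 are not reported here. Day 0 has 2 libraries a group, which limits its precision. Motifs were searched in RefSeq windows of 300 bases, and figures were drawn with matplotlib 3.10.9.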

Additional observations from a re-analysis of the deposited data

Results flagged for a closer look

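In 3 of 64 groups of 4 libraries, 1 library stood far from the rest, where chance gives about 1 in 20 groups. Gpi1 was at 562 CPM in roxadustat replicate 2 at day 7, below the 588 to 589.5 CPM of the others. Pfkl was at 41.3 CPM in control replicate 3 at day 21, below the 45.7 to 45.9 CPM of the others. The share of Hk2 in both hexokinases was 73.5% in control replicate 3 at day 7.

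The difference between roxadustat and control cells itself differed between days for most of the genes, by the edgeR interaction test. The log2 effect at day 7 minus that at day 0 was 2.61 for Slc2a1, 1.87 for Slc2a3, 1.76 for Hk1, 0.84 for Hk2 and 0.76 for Gpi1. It was 2.66 for Pfkl, 0.68 for Pfkm, 1.91 for Pfkp and 2.90 for Pfkfb3. For Hk1, Pfkm and Pfkfb3 the effect was positive at day 7 and negative at day 0. The adjusted p of these 9 lay between 5.74e-17 for Slc2a1 and 0.0129 for Hk2. At day 0 the cells were fresh and at day 7 cultured, and the treatment was given to the mouse or to the culture, so that the time, the culture and the route of treatment cannot be told apart.

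From day 7 to day 21, both in culture, the transporters and Hk2 moved further from control cells, by 0.65 for Slc2a1, 0.86 for Slc2a3 and 0.69 for Hk2. The value was negative for Hk1 (-0.52), Gpi1 (-0.67), Pfkl (-0.40), Pfkm (-0.50), Pfkp (-0.43) and Pfkfb4 (-0.50). For Pfkfb4, which was lower in roxadustat cells at both times, a negative value is a larger difference. The adjusted p of these 9 lay between 6.42e-08 for Gpi1 and 0.00872 for Pfkfb4. Scaling by library size alone gave 3 negative calls in place of 6.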

How the results depend on the processing

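For single genes in roxadustat against control cells, 328 of 340 values under other settings and 192 of 200 with 1 library left out kept their direction and call. The exceptions fell on day 0 and on genes with small changes.

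With scaling by library size alone, Pfkm at day 21 turned to 0.14 and Pfkp at day 0 to 0.01. Members called lower then numbered 1 at day 21, 0 in roxadustat cells at day 7 against day 0, and 3 in the interaction of day 21 and day 7, and members called higher 0 in control cells at day 21 against day 7. This scaling moved the split of all genes called higher and lower to 699 and 522 at day 0 (511 and 769 with TMM), 9369 and 3551 at day 21 (5615 and 6165), 9480 and 5201 in roxadustat cells at day 7 against day 0 (6946 and 7035), and 9075 and 5644 in control cells (6925 and 7401). In control cells at day 21 against day 7 it was 5062 and 8173 (6454 and 6421), and in the interaction of those days 6499 and 2502 (3921 and 4464). It shifted the median of all genes by 0.44 and 0.43 at day 7 against day 0 in roxadustat and control cells, and by 0.28 in that interaction. Upper quartile scaling left 1 member lower at day 21 and 3 lower in roxadustat cells at day 21 against day 7. Without a filter, 1 was higher there.

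At day 0, a fit of those libraries alone called 23 genes and 0 members lower, a threshold of 0.01 called 610 genes, and a fold of 1.5 called 661 genes and 1 member lower. That fold left 4210 genes and 0 members lower at day 7 (8927 genes without it), and 7599 genes and 1 member lower at day 21 (11780 without it).

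With 1 library left out, day 0 gave 573 to 1648 genes and 1 to 3 members lower, with 573 genes and 1 member without roxadustat replicate 1. Hk2 at day 0 lay between -0.28 and 0.77, at -0.11 without roxadustat replicate 2, and Pfkp between -0.14 and 0.04. The share of Slc2a3 at day 0 lay between -0.383 and 0.154 points, at 0.137 without roxadustat replicate 1. Members higher in roxadustat cells at day 21 against day 7 numbered 1 to 2.

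With the other genes of each family counted in, the differences in share at day 7 and day 21 were -0.719 and 0.634 points for Slc2a3, -1.01 and 12.5 for Hk2, 47.9 and 48.9 for Pfkl, -37.5 and -40.2 for Pfkm, -10.4 and -8.65 for Pfkp, and -22.1 and -26.5 for Pfkfb4. The adjusted p was then 0.0857 for Slc2a3 and Hk2 at day 7 and 0.0514 for the others, where fewer of the 18 tests reached the smallest p, and the phosphofructokinase values themselves are the same.

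With the replicate block, 1241, 8920 and 11727 genes were called at day 0, day 7 and day 21, members called at these days kept their numbers, and 4 in place of 5 members were higher in control cells at day 21 against day 7. Whether the numbers pair the libraries cannot be settled by correlating deviations from the group mean. Same-numbered libraries correlated at 0.02, 0.04, -0.02 and 0.05 at day 7, and at -0.31, 0.16, -0.01 and -0.10 at day 21. At day 0, with 2 libraries a group, same-numbered pairs gave 0.13 and the others -0.13, which is 1 value by construction. In culture, not every library correlated best with its own number. Summing the close pairs of control libraries at day 21, chosen after seeing the data, changed no call of a member in roxadustat against control cells at that day. The share tests were not repeated with the pairs summed, and at day 21 they treat the 4 control libraries as separate. Few reads limit Slc2a3 and Pfkfb4, and 2 libraries a group limit day 0. Causes of these changes were not tested.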

Other observations

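Fbp1 and G6pc, whose enzymes act in the direction of glucose, were abundant in fresh cells and had no counts at day 21. Fbp1, the fructose bisphosphatase of gluconeogenesis, was at 1323 ± 88.6 CPM in roxadustat cells and 1428 ± 338 CPM in control cells at day 0 (SD, n = 2 each), and had no counts in any library at day 21. G6pc, which releases free glucose, was at 622 ± 16.2 CPM in roxadustat cells and 830.4 ± 452 CPM in control cells at day 0, and likewise had none at day 21. A count of 0 over the group allows up to 0.0555 CPM in roxadustat cells and 0.0461 CPM in control cells (3 counts over the group, counting error only). Neither gene differed between roxadustat and control cells at day 0 beyond its error (edgeR adjusted p = 0.899 for Fbp1 and 0.585 for G6pc). Proximal tubule markers, which stood at 21768 CPM or more in sum at day 0 and at most 306 CPM at day 21, moved with them, and their part was not tested.

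Slc2a2, the transporter of the proximal tubule and liver, made up 42.3% ± 0.459 of the length-scaled counts of the SLC2 genes in roxadustat cells and 36.0% ± 4.87 in control cells at day 0. It made up 0.687% ± 0.0582 in roxadustat cells and 1.26% ± 0.219 in control cells at day 7. Its level went the other way at day 7, with 3.12 ± 0.196 CPM in roxadustat cells and 1.63 ± 0.305 CPM in control cells. That was 1.90-fold higher in roxadustat cells (edgeR adjusted p = 0.000575). At day 21 the shares overlapped, with 1.01% ± 0.162 in roxadustat cells and 0.932% ± 0.377 in control cells. The level of Slc2a2 was again higher in roxadustat cells, with 5.06 ± 0.864 CPM against 1.43 ± 0.601 CPM in control cells (3.56-fold, edgeR adjusted p = 5.66e-08).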
